A study of Homo sapiens with 6 samples.

Results

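The cornified envelope is the protein shell that a squamous epithelial cell lays down beneath its membrane at the end of differentiation. Transglutaminase 1, the product of TGM1, cross-links precursor proteins into this shell, among them involucrin (IVL), the small proline-rich proteins (SPRR genes), cystatin A (CSTA) and cornifelin (CNFN). Oral mucosa makes such envelopes, and squamous carcinoma cells keep parts of the programme to varying degrees. The 9 genes described here, SPRR1A, SPRR1B, SPRR2A, SPRR2D, SPRR3, TGM1, CSTA, CNFN and IVL, were taken by name from a table of 27852 gene symbols, in which transcript values were summed by gene, and all 9 were present. They were chosen with earlier results of these data known.

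The RNA came from the established human oral carcinoma lines HSC3, HSC4 and SAS. Cells of each line were grown in HPLM, a medium composed after human plasma, or in DMEM, a standard culture medium. All cultures carried 10% heat-inactivated fetal bovine serum and an antibiotic-antimycotic supplement. There was 1 poly(A) library for each line and medium, 6 in all, 3 in HPLM and 3 in DMEM, with totals of 17715962 to 20171750 estimated counts. No treatment, genotype or time other than the medium is given. The columns taken as DMEM name the line with an ending that the sources used here do not explain and lack the word HPLM, and the direction of every difference between media rests on that match. The 3 lines stand in for replicates of a medium, and the 2 media for replicates of a line, so p-values measure the spread over lines or media and not over cultures. The labels name the cells as oral cancer lines, and squamous keratins were present in all libraries, with KRT5 at 479 to 2135 TPM and KRT17 at 315 to 693 TPM. KRT14 had 1139 and 1460 TPM in HSC3, 11.3 and 4.79 in HSC4, with 154 and 203 in SAS, in HPLM and DMEM. KRT6A had 322 and 245 in HSC3, 475 and 332 in HSC4, with 7.71 and 13.0 in SAS. Keratins of simple epithelium were present as well, with KRT8 at 574 to 1071 TPM and KRT18 at 768 to 963. KRT7 had 21.0 and 14.9 in HSC3, 100.5 and 67.2 in HSC4, with 1669 and 1740 in SAS, above KRT5 there. KRT19 had 273 and 242 in HSC3, 4.93 and 2.515 in HSC4, with 143 and 109 in SAS. Each deposited value is an abundance scaled to the size of its library, and it was divided by that total to give TPM. It is corrected for transcript length, so that levels of different genes may be compared. In bulk RNA, fewer cells that express a gene and less RNA per cell cannot be told apart.

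The genes lie in few places of the genome. Of the 9, 6 (IVL and the 5 SPRR genes) lie on chromosome 1 within 149.0 kb, from 152908545 to 153057537 (GRCh38, GENCODE 29). TGM1 lies on chromosome 14 (24249114 to 24264432, minus strand), CSTA on chromosome 3 (122325244 to 122341972, plus strand) and CNFN on chromosome 19 (42387019 to 42390287, minus strand). RefSeq promoter windows (GRCh38.p14) were found for 6 members: SPRR1A, SPRR1B, SPRR2A, SPRR3, CNFN and IVL. The 250 bases before the start site are printed here, 5′ to 3′ on the strand of the gene, for 5 of these, because they set genes with a match to the AP-1 motif beside 1 without it. AP-1, the dimer of JUN and FOS family proteins, is a known activator of SPRR and IVL promoters, and capitals mark its motif TGANTCA. The windows are chr1:152983831-152984080 (plus strand) for SPRR1A, chr1:153030953-153031202 (plus) for SPRR1B, chr1:153057513-153057762 (minus) for SPRR2A, chr1:152908296-152908545 (plus) for IVL and chr19:42390298-42390547 (minus) for CNFN.
SPRR1A: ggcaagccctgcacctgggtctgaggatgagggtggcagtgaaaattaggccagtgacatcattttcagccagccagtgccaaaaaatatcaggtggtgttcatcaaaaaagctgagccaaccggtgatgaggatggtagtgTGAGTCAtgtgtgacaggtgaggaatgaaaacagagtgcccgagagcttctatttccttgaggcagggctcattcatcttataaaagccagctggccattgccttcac
SPRR1B: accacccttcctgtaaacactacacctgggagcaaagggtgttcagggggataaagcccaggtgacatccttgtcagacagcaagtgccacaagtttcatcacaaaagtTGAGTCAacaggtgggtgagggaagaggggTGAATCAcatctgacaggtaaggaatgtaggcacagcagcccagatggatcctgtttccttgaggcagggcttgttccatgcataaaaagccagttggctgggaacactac
SPRR2A: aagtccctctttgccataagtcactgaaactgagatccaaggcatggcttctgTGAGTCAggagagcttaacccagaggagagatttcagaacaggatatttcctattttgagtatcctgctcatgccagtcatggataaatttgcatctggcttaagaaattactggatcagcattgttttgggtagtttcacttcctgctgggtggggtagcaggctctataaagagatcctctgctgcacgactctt
IVL: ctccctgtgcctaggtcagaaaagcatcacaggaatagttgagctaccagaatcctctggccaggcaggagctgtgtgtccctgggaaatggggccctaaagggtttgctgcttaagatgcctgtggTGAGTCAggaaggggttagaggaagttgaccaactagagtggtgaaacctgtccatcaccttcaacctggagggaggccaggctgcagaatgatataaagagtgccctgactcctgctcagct
CNFN: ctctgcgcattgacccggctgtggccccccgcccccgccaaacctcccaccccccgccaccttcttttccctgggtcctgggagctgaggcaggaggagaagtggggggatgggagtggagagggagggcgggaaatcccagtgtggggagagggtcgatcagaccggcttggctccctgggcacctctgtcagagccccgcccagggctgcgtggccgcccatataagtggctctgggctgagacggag

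TGANTCA, which reads the same on both strands, was in 5 of the 6 windows, against 6.57% of all 35116 RefSeq windows of this length. Its first base lay 108 bases before the start site in SPRR1A, 197 in SPRR2A, 170 in SPRR3 and 123 in IVL, and SPRR1B held 2 matches, at 141 and 111 bases. CNFN had no match. AP-1 is a known activator of SPRR and IVL promoters, so matches there could be foreseen. The 5 genes with a match lie together on chromosome 1, and their windows are not independent draws from all windows. TATAAA, an exact form of the TATA box searched on the strand of the gene, was in 4 windows (SPRR1A, SPRR2A, SPRR3 and IVL), against 6.80% of all windows. Its first base lay 29 or 30 bases before the start site. Variant forms of the box were not searched, so SPRR1B and CNFN cannot be said to lack one. CACCC, a core of KLF-type motifs searched on both strands, was in 5 of the 6 windows, all but IVL, and in 54.71% of all windows, so a match to it sets these genes little apart. In SPRR1B, 1 CACCC match, at 114 bases, overlaps the TGANTCA match at 111. A match shows letters only, not a bound factor.

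**Figure D1:**
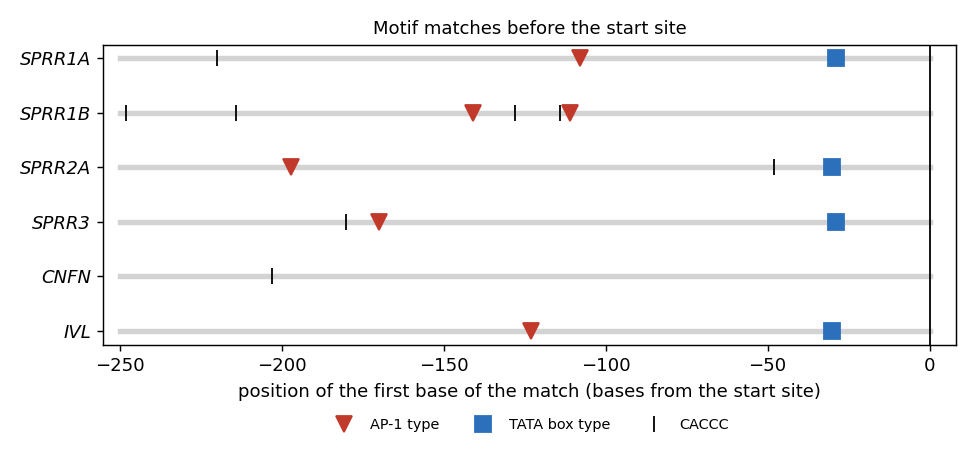
Motif matches in the 250 bases before the RefSeq start site of 6 members, with position on the x axis in bases from the start site and each gene on its own row. Triangles mark TGANTCA, squares TATAAA and ticks CACCC. SPRR1B has 2 triangles, CNFN has none, and the 4 squares stand 29 or 30 bases before the start.

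The small proline-rich genes encode short, repeat-rich proteins that bridge other envelope components. SPRR1B was by far the highest of them, with a mean of 69.9 ± 92.1 TPM in HPLM and 40.8 ± 50.6 in DMEM (SD, n = 3 lines each). Its values were 32.1 in HPLM and 24.1 in DMEM in HSC3, 175 and 97.7 in HSC4, with 2.63 and 0.733 in SAS. It was higher in HPLM in each line, yet the lines differed far more than the media, and the groups overlapped. Its paralog SPRR1A had 0.716, 0.617 and 0.341 TPM in HPLM in HSC3, HSC4 and SAS, and was listed at 0 in all 3 DMEM libraries. The HPLM values stem from deposited counts of only 14.4, 10.9 and 6.85. The annotated transcript of SPRR1A in GENCODE 29 is a single exon of 270 bases that starts 1150 bases after the RefSeq start site. Whether the submitters counted against the same transcript is not given in the sources used here. In words of 31 bases, 26.2% of that transcript is shared with SPRR1B, and 10.7% of SPRR1B with SPRR1A, and such reads can be divided between the genes only by estimate.

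SPRR2A and SPRR2D belong to a family of near copies. SPRR2A had 0.881 TPM in HPLM and 0.124 in DMEM in HSC3, 10.4 and 2.59 in HSC4, with 0.768 and 0 in SAS. SPRR2D had 0 and 0.132 in HSC3, 8.03 and 5.05 in HSC4, with 1.09 and 0 in SAS. HSC4 was the 1 line with more than 2 TPM of either gene, in both media. Of the words of 31 bases in SPRR2A, 51.2% occur in other genes and 33.6% in SPRR2D, and 29.9% of those in SPRR2D occur in other genes. Added up with their relatives, the SPRR2 genes came to 1.02 TPM in HPLM and 0.256 in DMEM in HSC3, 20.1 and 8.26 in HSC4, with 2.003 and 0 in SAS. This sum depends less than its parts on how reads were divided within the family. It is not free of that division, since each value is corrected for transcript length. SPRR3, a member typical of oral and oesophageal epithelium, was found mainly in HSC4, at 3.52 in HPLM and 1.51 in DMEM. It had 0 in HPLM and 0.186 in DMEM in HSC3, and 0 in both SAS libraries. Of its value, 90.5% lay in 1 protein-coding transcript.

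CSTA, whose product inhibits cysteine proteases and is also built into the envelope, was the most abundant member. It had 330 TPM in HPLM and 313 in DMEM in HSC3, 193 and 84.2 in HSC4, with 94.4 and 78.6 in SAS. HSC3 stood highest in both media, and the largest gap between media was that in HSC4. Its mean was 206 ± 119 in HPLM and 159 ± 134 in DMEM (SD, n = 3 lines each), so the groups overlapped. CNFN, which encodes a small cysteine-rich envelope protein, had 2.71 in HPLM and 1.39 in DMEM in HSC3, 11.2 and 6.05 in HSC4, with 5.96 and 2.99 in SAS. Its ratio between media was nearly the same in each line, with log2 ratios of 0.95 (HSC3), 0.94 (HSC4) and 1.05 (SAS), while its level ran over an order that put HSC3 lowest. IVL, an early scaffold of the envelope, was low, with 0.471 in HPLM and 0 in DMEM in HSC3, 0.659 and 0.281 in HSC4, with 2.32 and 0.382 in SAS. It was the only member with its highest value in SAS.

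TGM1 encodes the enzyme itself. It had 4.47 TPM in HPLM and 3.24 in DMEM in HSC3, 3.15 and 1.72 in HSC4, with 1.38 and 0.628 in SAS. The order of its levels was HSC3, HSC4, SAS in either medium. Its value was spread over 8 of 9 listed transcripts, and the 1 with 15 exons and 2777 bases held 32.6% of it, while transcripts of 2 exons and 469 to 580 bases held 18.8% and 21.9%. The 15-exon transcript had 1.37 in HPLM and 0.908 in DMEM in HSC3, 1.33 and 0.282 in HSC4, with 0.423 and 0.447 in SAS. In SAS it was therefore not higher in HPLM, unlike the summed gene.

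**Figure D2:**
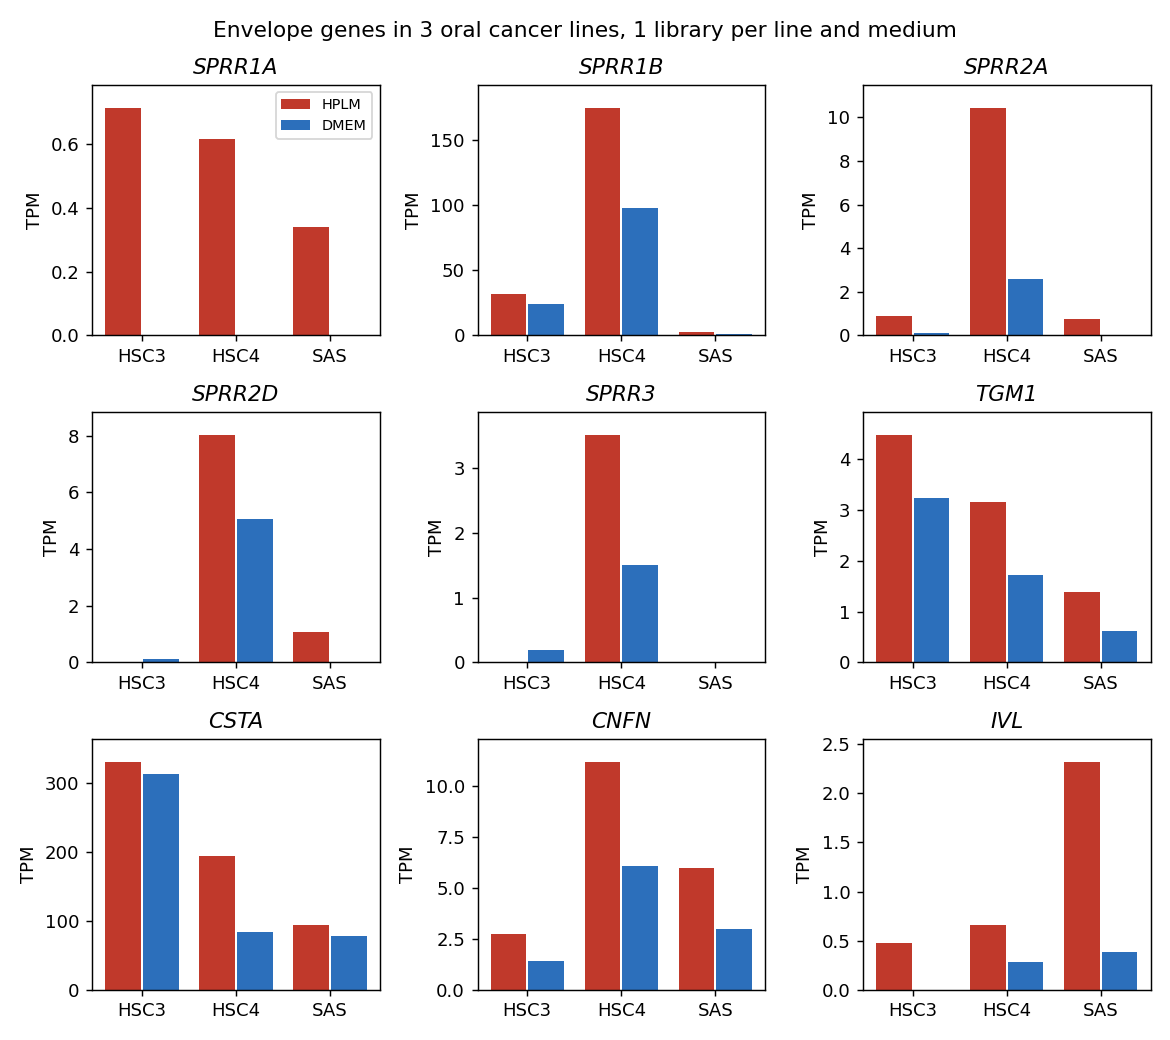
Value TPM of each of the 9 genes in the 6 libraries, with HPLM in red to the left of DMEM in blue within each line. Each bar is 1 library, and every panel has its own linear axis from 0. HSC4 has the tallest bars for SPRR1B, SPRR2A, SPRR2D, SPRR3 and CNFN, HSC3 for SPRR1A, TGM1 and CSTA, and SAS for IVL.

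The 9 genes together came to 372 TPM in HPLM and 342 in DMEM in HSC3, to 406 and 199 in HSC4, and to 109 and 83.3 in SAS. CSTA made up 88.9% and 91.5% of this sum in HSC3, 47.7% and 42.3% in HSC4, with 86.7% and 94.3% in SAS, in HPLM and DMEM. SPRR1B took most of the remainder in HSC4, with 43.1% in HPLM and 49.1% in DMEM, against 2.42% and 0.879% in SAS. The sum in HPLM over that in DMEM was 1.09 (HSC3), 2.04 (HSC4) and 1.31 (SAS). Without CSTA the ratio was 1.42, 1.85 and 3.06 in those lines, so the order of the lines depended on 1 gene.

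**Figure D3:**
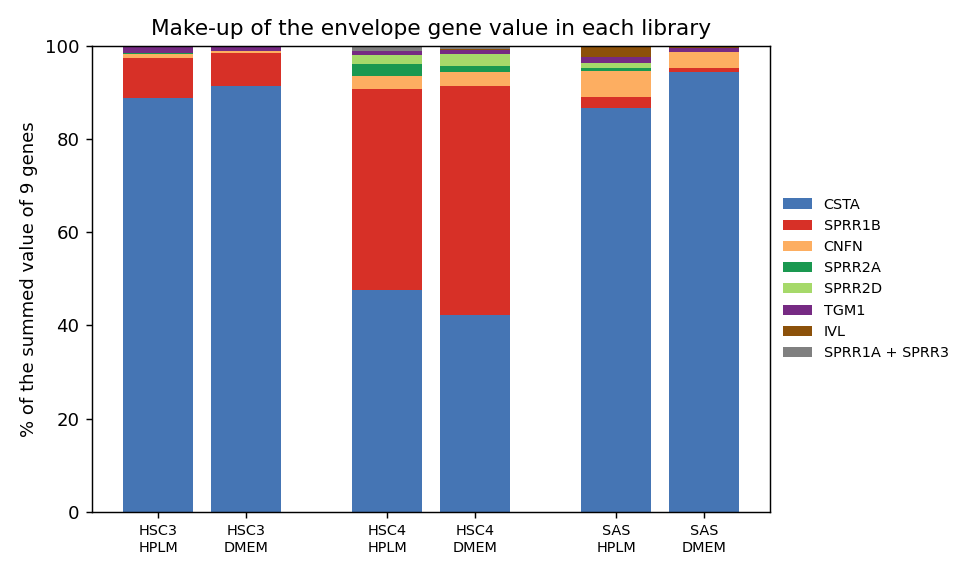
Make-up of the summed value of the 9 genes in each library, in percent, with HPLM to the left of DMEM in each line. CSTA fills 86.7% to 94.3% of the bars of HSC3 and SAS, whereas SPRR1B fills 43.1% and 49.1% of the bars of HSC4.

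The medium was compared with the cell line as a block, by edgeR's quasi-likelihood test over 13236 genes. Of the 9 members, 6 had enough counts to be tested. These counts are corrected for transcript length, so short transcripts reach the cut with fewer reads than long ones. The transcripts of the SPRR genes and CNFN are short, and the test treats the corrected counts as reads. SPRR1B, TGM1, CSTA and CNFN had at least 10 deposited counts in every library. SPRR2A reached 10 in the 3 HPLM libraries and in the DMEM library of HSC4, and SPRR2D in both HSC4 libraries and the HPLM library of SAS, where the DMEM library had 0. These 2 genes were therefore tested through libraries in which they are high in HPLM, and counts of members that include them are a description only. None of the 6 passed at a Benjamini-Hochberg adjusted p under 0.05, and 0.00756% of all genes did, which is 1 gene and no member. At an unadjusted p under 0.05, SPRR1B, TGM1, CSTA, CNFN and SPRR2A were higher in HPLM, as were 5.57% of all genes tested. DESeq2 called 2 members, SPRR1B and SPRR2A, and 127 of all 13236 genes tested. With limma-voom, 0 members and 9 of all genes were called.

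SPRR2A had the largest fitted difference, at 2.68 ± 0.58 on the log2 scale (SE, n = 3 lines; edgeR adjusted p = 0.362). It rests on low values outside HSC4. CNFN had 1.00 ± 0.19 (edgeR adjusted p = 0.340), the smallest SE of the 6. SPRR1B had 0.83 ± 0.21 (edgeR adjusted p = 0.381), with log2 ratios of 0.42 (HSC3), 0.90 (HSC4) and 1.76 (SAS). TGM1 had 0.83 ± 0.31 (edgeR adjusted p = 0.465), and its 15-exon transcript alone, an alternative chosen after the data were seen, had 1.02 ± 0.58 (edgeR adjusted p = 0.603). CSTA had 0.56 ± 0.22 (edgeR adjusted p = 0.490), with log2 ratios of 0.09 (HSC3), 1.26 (HSC4) and 0.34 (SAS), and without the HSC4 libraries its fitted value was 0.20. SPRR2D had 1.25 ± 1.01 (edgeR adjusted p = 0.718), and 0.30 without the SAS libraries. Its log2 ratio was −1.33 in HSC3, where it lay at 0.132 TPM or less. The summed SPRR2 genes had 2.09 ± 0.64 (edgeR adjusted p = 0.407).

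**Figure D4:**
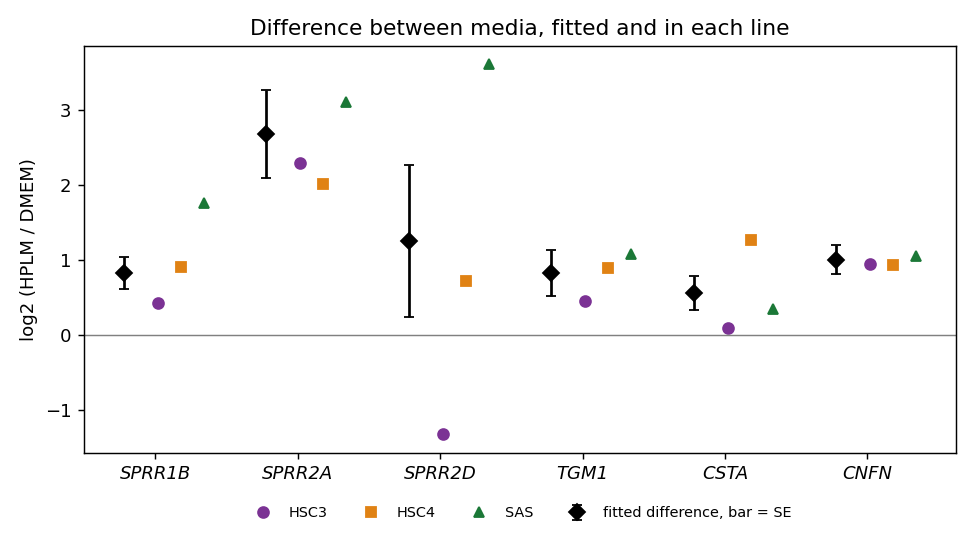
Difference between media on the log2 scale, HPLM over DMEM, for the 6 members tested. Diamonds are fitted values with their SE, and the circle, square and triangle are the ratios in HSC3, HSC4 and SAS, taken with a prior count of 2. CNFN has 3 like ratios between 0.94 and 1.05, and SPRR2D runs from −1.33 to 3.61.

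Within single lines, where the difference between media has no replicate, 1 of the 6 tested members was at least 2-fold higher in HPLM in HSC3 (SPRR2A), against 3.13% of all genes tested. In HSC4 there were 2 (CSTA and SPRR2A), against 3.32%. In SAS there were 5 (all but CSTA), against 4.05%. In SAS the SPRR2A and SPRR2D ratios are set against a listed 0, so the size of each depends on the prior count. Both genes passed the low-count filter through libraries in which they are high in HPLM. The counts of each line include SPRR2A, so they are a description only. Over all 9 members, 7 had a higher value in HPLM in each line, all but SPRR2D and SPRR3, against 10% of the symbols above 0 in some library. For 2 of the 9, SPRR1A and IVL, the lowest HPLM value lay above the highest DMEM value, against 1.35% of those symbols. Neither of these, nor SPRR3, passed the filter on low counts. Since the members were chosen with earlier results of these data known, the counts set beside all genes or symbols here are a description only. Whether the response differs between lines was not tested, since 1 library per line and medium leaves no error for it.

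The lines were then compared in the same fit, with the medium as a term. Between HSC3 and HSC4, 5 of the 6 tested members passed, against 37.4% of all genes. SPRR2D passed the low-count filter mainly through HSC4, so counts between lines that include it are a description only. SPRR1B was lower in HSC3 by a log2 difference of −2.09 ± 0.24 (SE; edgeR adjusted p = 0.00221), CNFN by −1.94 ± 0.24 (edgeR adjusted p = 0.00292), SPRR2A by −3.83 ± 0.68 (edgeR adjusted p = 0.00839) and SPRR2D by −6.18 ± 1.40 (edgeR adjusted p = 0.0183). CSTA went the other way and was higher in HSC3 by 1.45 ± 0.28 (edgeR adjusted p = 0.0107). The difference of CSTA was 0.88 within HPLM and 2.06 within DMEM, and 0.93 without the HSC4 DMEM library. TGM1 had 0.85 ± 0.36 (edgeR adjusted p = 0.117). The 2 SPRR2 calls rest on low values. That of SPRR2A ended without the HSC3 HPLM library (edgeR adjusted p = 0.0583). That of SPRR2D ended without the HSC3 HPLM library (0.0829), the HSC4 HPLM library (0.0761) and the HSC4 DMEM library (0.129), and by DESeq2 (0.1598), and its value was −10.74 without the HSC3 DMEM library. The summed SPRR2 genes had −4.58 ± 0.79 (edgeR adjusted p = 0.00729).

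Between HSC3 and SAS, 4 of the 6 passed, against 39.4% of all genes. SPRR1B was higher in HSC3 by 4.11 ± 0.31 (SE; edgeR adjusted p = 0.000709), CSTA by 1.91 ± 0.28 (edgeR adjusted p = 0.00409) and TGM1 by 1.97 ± 0.39 (edgeR adjusted p = 0.0108). CNFN was lower in HSC3 by −1.13 ± 0.25 (edgeR adjusted p = 0.0153). The TGM1 call ended without the DMEM library of HSC3 (edgeR adjusted p = 0.0693) or of SAS (0.0718), and for the 15-exon transcript alone the difference was 1.34 ± 0.71 (0.181). The CNFN call ended when any 1 of the 4 libraries of these lines was left out (edgeR adjusted p from 0.0596 to 0.0938), with a difference between −1.19 and −1.08. SPRR2A had 0.47 ± 0.79 and SPRR2D −2.49 ± 1.64 (edgeR adjusted p = 0.666 and 0.271), and both moved with single libraries. Without the HPLM library of SAS, SPRR2A had 4.67 and SPRR2D 3.6, and SPRR2A had 0.04 without the DMEM library of SAS and 0.08 without the HPLM library of HSC3.

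Between HSC4 and SAS, 4 of the 6 passed, all higher in HSC4, against 41.3% of all genes. SPRR2D is among them, so this count too is a description only. SPRR1B stood higher in HSC4 by 6.2 ± 0.31 (SE; edgeR adjusted p = 0.000346). SPRR2A had 4.30 ± 0.71 (edgeR adjusted p = 0.00593), SPRR2D 3.69 ± 1.1 (0.0408) and CNFN 0.81 ± 0.23 (0.0345). Without the HPLM library of SAS, which leaves a line listed at 0, SPRR2A had 8.39 and SPRR2D 9.74. The CNFN call ended without any 1 of the 4 libraries concerned (edgeR adjusted p from 0.138 to 0.155) and by DESeq2 (0.119). The SPRR2D call ended without the HPLM library of HSC4 (0.187), the DMEM library of HSC4 (0.180) and the DMEM library of SAS (0.0944), without the low-count filter (0.0584) and by DESeq2 (0.3803). CSTA had 0.46 ± 0.27 (edgeR adjusted p = 0.223; 0.0225 without the DMEM library of HSC4), a difference of 0.88 within HPLM and −0.04 within DMEM. TGM1 had 1.12 ± 0.39 (edgeR adjusted p = 0.0627, and 0.0413 with library totals alone). Its DESeq2 adjusted p was 0.157, and for the 15-exon transcript alone the difference was 0.51 ± 0.74 (edgeR adjusted p = 0.606). The order of the lines thus was not shared by the members: HSC4, HSC3, SAS for SPRR1B, HSC3 above the other two for CSTA, and HSC4, SAS, HSC3 for CNFN.

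Other genes of cornification, in lists chosen with earlier results of these data known, included many at low values. Of the 18 late cornified envelope genes, 9 were at 0 in all 6 libraries and 1, LCE3D, was tested. LCE3D had 1.89, 1.92 and 0.595 TPM in HPLM in HSC3, HSC4 and SAS and was listed at 0 in all 3 DMEM libraries (edgeR adjusted p = 0.315), as SPRR1A was, and it passed the filter through its HPLM values alone. Loricrin, the main precursor of the epidermal envelope, was at 0 in every library. None of the 7 filaggrin-type genes and none of the 5 further SPRR genes was tested, with list sums of 0.206 to 0.645 TPM in HPLM and 0.192 to 0.848 in DMEM for the filaggrin-type list, and 0.147 to 2.56 in HPLM and 0 to 1.02 in DMEM for the SPRR genes. In the list of further transglutaminases and envelope proteins, 3 of 5 tested genes were positive, 2 were higher and 0 lower by an unadjusted p below 0.05, and 0 passed. Over all genes tested, 50.1% were positive, 5.57% were higher at an unadjusted p under 0.05, and the median log2 fold change was 0.00. TGM2, a transglutaminase of many tissues, had 277 and 165 TPM in HPLM and DMEM in HSC3, 172 and 182 in HSC4, with 189 and 120 in SAS, far above TGM1 in each library. Periplakin (PPL), a scaffold protein of the envelope, had a log2 fold change of −0.46 ± 0.19 and sciellin (SCEL) 0.96 ± 0.36 (SE; edgeR adjusted p = 0.501 and 0.471).

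Protease inhibitors of the cornified layer had a median log2 fold change of 0.31, with 7 of 7 tested genes positive, 2 higher and 0 lower by an unadjusted p below 0.05 and 0 called by edgeR. PI3, or elafin, an elastase inhibitor that transglutaminases also cross-link, had 2.27 ± 0.35 (SE; edgeR adjusted p = 0.260), at 35.1 TPM in HPLM and 14.7 in DMEM in HSC3, 465 and 59.6 in HSC4, with 11.8 and 2.19 in SAS. Cornification proteases had a median of 0.27, with 5 of 7 positive, 2 higher and 1 lower by an unadjusted p below 0.05 and 0 called. Among them ST14, or matriptase, had 0.45 ± 0.12 (edgeR adjusted p = 0.381), and the lysosomal protease gene CTSD −0.83 ± 0.19 (edgeR adjusted p = 0.362). Suprabasal adhesion and keratin genes had a median of 0.25, with 5 of 8 positive, and 1 higher and 0 lower by an unadjusted p below 0.05. Barrier lipid genes had a median of 0.00, with 5 of 9 positive, and 1 higher and 1 lower at that threshold. In neither list was a gene called. Regulators of keratinocyte differentiation had a median of 0.40 with 13 of 17 positive, 5 higher and 0 lower by an unadjusted p below 0.05, and 0 called. JUN, an AP-1 subunit, had 0.52 ± 0.09 (SE; edgeR adjusted p = 0.315) and was higher in HPLM in each line. The AP-1 genes FOSL2 and JUNB had 0.41 ± 0.14 and 0.19 ± 0.10 (edgeR adjusted p = 0.431 and 0.565). Both were higher in HPLM in each line. FOSL1, the most abundant AP-1 gene of the list, had −0.20 ± 0.12 (edgeR adjusted p = 0.632). GRHL3, a factor of barrier formation, had 1.81 ± 0.53 (edgeR adjusted p = 0.401), with 0.358 TPM in HPLM and 0.374 in DMEM in HSC3, 2.41 and 0.537 in HSC4, with 7.91 and 1.59 in SAS. It was thus not higher in HPLM in HSC3. JUN, GRHL3, PI3, ST14 and CTSD were taken by a rule on the p-value, FOSL1, FOSL2, JUNB and LCE3D after their values were seen.

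**Figure D5:**
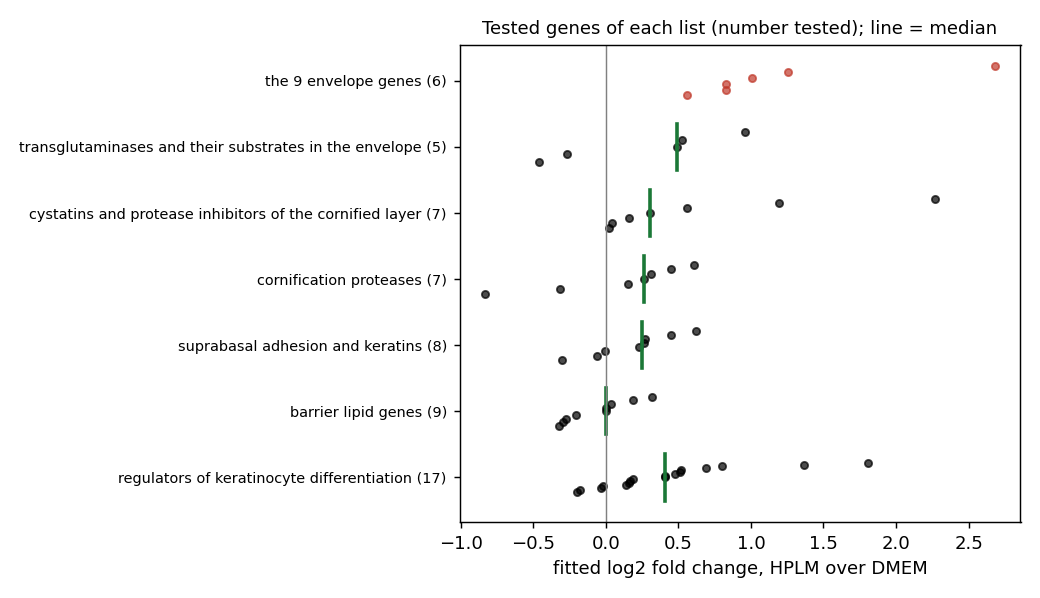
Fitted log2 fold changes, HPLM over DMEM, of the tested genes of each list with at least 2 tested genes, with the number tested in brackets and, for the lists other than the envelope genes, the median as a green line. The 6 tested envelope genes, in red, lie from 0.56 to 2.68, and the medians of the other lists lie between 0.00 and 0.49.

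By Pearson correlation of log2 values over the 6 libraries, the genes most like the mean of the 6 tested members, among 9832 others with at least 5 TPM, were R3HDM4 (r = 0.989), ST14 (0.988), BET1 (0.986), PI3 and KCTD18 (0.984 each). With 6 points that share 3 lines this is a description of the line pattern. Among themselves the members did not share 1 pattern: r was 0.897 between TGM1 and CSTA, 0.832 between SPRR2A and SPRR2D, 0.786 between SPRR1B and SPRR2A, and −0.446 between CSTA and CNFN. SPRR2A and SPRR2D share sequence as described.

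Markers of other cell types were measured in the same libraries. Leukocyte markers, 8 in all, had 5 tested and 5 positive genes, with 1 higher and 0 lower by an unadjusted p below 0.05. They summed to 57.7 to 169 TPM in HPLM and 49.8 to 142 in DMEM, mostly from CD68 and CD74. PTPRC, the pan-leukocyte gene, had 1.62 to 2.22 TPM over the 6 libraries, CD14 0.578 to 3.03 and ITGAM 0.126 to 1.77, which is within the range of TGM1 or near it, and CD3E and LYZ had 0.132 or less. The 7 fibroblast markers, 1 of them tested, summed to 3.15 to 6.28 in HPLM and 1.98 to 5.96 in DMEM. The 4 endothelial markers, none of them tested, summed to 0.341 to 2.30 in HPLM and 0.427 to 1.13 in DMEM. Of the 6 markers of simple epithelium, all tested, 5 were positive, with 2 higher (KRT19 and KRT7) and 0 lower at an unadjusted p under 0.05, and their sum was 1778 to 3760 in HPLM and 1605 to 3877 in DMEM. Of the 9 genes listed as squamous markers, all tested, 5 were positive, with 1 higher (EPCAM, not a keratin) and 2 lower at that threshold. Their sum was 1494 to 4140 in HPLM and 2084 to 4923 in DMEM. The 2 lower ones were keratins, with KRT17 at −0.40 ± 0.10 and KRT5 at −0.38 ± 0.15 on the log2 scale (SE; edgeR adjusted p = 0.381 and 0.491), and KRT17 was lower in HPLM in each line. The part of these markers in the results on the envelope genes was not tested.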

How the data were processed

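Poly(A) RNA of 3 cell lines in 2 media was sequenced on a DNBSEQ instrument from strand-specific libraries, per the labels' protocols. FastQC, kallisto and hg38 are named in the submitters' processing notes, and the authors deposited estimated counts per transcript as scaled TPM. Not given in the sources used here are versions, annotation release and use of strand. Columns were matched to samples by the line and the word HPLM in their names. The titles of DMEM samples name the line alone, while their columns add an ending that is not explained. No column was left unused. The 1312 repeated rows were counted once, 6878 transcripts without a symbol (0.362% to 0.479% of a library) left out, and sums by symbol rounded. A unit is no read, so no counting interval is given.

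R 4.3.3 with edgeR 4.0.16 was used: filterByExpr by medium (minimum count 10, total 15), TMM, and the quasi-likelihood test with line and medium as terms (2 residual and 4 prior degrees of freedom), with Benjamini-Hochberg adjustment over all genes. limma 3.58.1 and DESeq2 1.42.0 were alternatives, and the fit was tested on simulated data. The line pairs the libraries: deviations from the medium's mean correlated at 0.779, 0.792 and 0.805 between the libraries of HSC3, HSC4 and SAS. Ratios per line used a prior count of 2. Members and lists were chosen with earlier results of these data known. Named list genes were up to 3 per list by smallest p at 1 TPM or more. Words of 31 bases were counted in GENCODE 29 transcripts.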

Additional observations from a re-analysis of the deposited data

How the results depend on the processing

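The number of genes called between media, 1 in the main analysis, was 0 with upper-quartile scaling, 0 without the low-count filter, 9 with limma-voom, 127 with DESeq2, 0 with no replicate block (paired fit dropped), and 0 to 4 when both libraries of 1 line were left out. No member was called in any of these except by DESeq2, with 2: SPRR1B (0.90 ± 0.24 SE, DESeq2 adjusted p = 0.0230) and SPRR2A (2.97 ± 0.77, DESeq2 adjusted p = 0.0161). SPRR2A passed the low-count filter through libraries in which it is high in HPLM, so its call is a description only. Over all alternatives the edgeR, limma or DESeq2 adjusted p of SPRR1B ran from 0.0230 to 1.00, and that of SPRR2A from 0.0161 to 1.00. Every tested member kept a fitted difference above 0 under each alternative in which it was tested. With 1 library left out at a time, members called between lines ran from 3 to 6 for HSC3 against HSC4, 2 to 4 for HSC3 against SAS and 2 to 5 for HSC4 against SAS, and DESeq2 called 2 in the last. In that comparison CSTA had −0.10 without the HPLM library of HSC4 and 0.96 without its DMEM library (edgeR adjusted p = 0.668 and 0.0225). SPRR2D, HSC3 against SAS, ran from −6.91 without the DMEM library of HSC3 to 3.6 without the HPLM library of SAS, where its direction turned (edgeR adjusted p = 0.423). Such fits leave 1 residual degree of freedom. They tested 6, 8 or 9 members, depending on the library left out, against 6 in the main fit. The counts of members called between lines are therefore not all out of the same 6. The share of all genes called in these fits is not given here, so the counts are a description only. Levels with repeated rows added moved by less than the spread over lines. Values under about 1 TPM rest on few reads, whose number is not known.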
